A study of Mus musculus with 6 samples.

Results

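The core machinery of autophagy and its cargo receptors were examined as 33 genes of B16F10 melanoma cells with and without depletion of OSGEP. Members were the genes of the deposited table whose symbol was one of 33 names, chosen for their place in the pathway. The rule used no measured value, though the names were set with earlier results of these data known. All 33 were found among the 55487 genes listed, and all 33 were among the 12669 genes that passed the filter on low counts. By role they fell into 5 genes of the ULK1 initiation complex, 5 of the class III PI3-kinase complex, 4 of phagophore membrane supply and PI3P binding, 5 ATG8 modifiers, 7 conjugation enzymes and their partners, 5 cargo receptors and 2 transcription factors. B16F10 is a mouse melanoma cell line grown in culture. Per the labels and methods of the study, the cells were transduced with lentiviral shRNA and selected with puromycin. The control group (shCtr) carried a scramble hairpin and the depleted group (shOSGEP) carried the hairpin the labels call OSGEP#2, with total RNA of 3 independent infections in each group. Since 1 hairpin was sequenced, loss of OSGEP and any other effect of that hairpin cannot be told apart here.

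Autophagy encloses cytoplasm in a double membrane, the autophagosome, and delivers it to the lysosome. A kinase complex built on ULK1 starts the process, a lipid kinase complex built on PIK3C3 and Beclin 1 marks the growing membrane with PI3P, and conjugation enzymes attach proteins of the ATG8 family to it. Cargo receptors such as p62, encoded by Sqstm1, bind both ubiquitinated cargo and ATG8 proteins, which makes this pathway a main route for clearing protein aggregates. Much of its control acts on proteins and lipids, which mRNA levels do not report.

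The question addressed was whether the mRNAs of this machinery differ between OSGEP-depleted and control cells. Libraries held between 18915587 and 29487384 counts. Osgep itself, which encodes the catalytic subunit of the KEOPS complex that places t6A on tRNAs, had 20.6, 58.6 and 21.8 CPM (counts relative to the TMM-adjusted size of the library) in shCtr replicates 1, 2 and 3. In shOSGEP it had 4.28, 0.542 and 5.52 CPM, below every control library. The Log2FC of Osgep was -3.29 (SE 0.876) with an unadjusted p of 0.00524 and an adjusted p of 1.00 in edgeR's quasi-likelihood test, and with DESeq2 the adjusted p was 0.0386. Without replicate 2 the Log2FC of Osgep was -2.11. All 7 melanocyte markers were expressed, with summed levels of 17000 to 29600 CPM in shCtr and 3550 to 18100 CPM in shOSGEP, the lowest in shOSGEP replicate 2. Of 14 markers of leukocytes, fibroblasts, endothelium and keratinocytes, 5 (Ptprc, Cd3e, Adgre1, Cdh5 and Krt10) had no count in any library and 3 passed the count filter. Their summed levels were 6.93 to 12.9 CPM in shCtr and 14.7 to 22.9 CPM in shOSGEP, most of it Pdgfrb, which was higher in every depleted library. The part of these marker levels in the values of the autophagy genes was not tested. The control library of replicate 2 stood apart, with a TMM factor of 0.69 against 1.04 to 1.14 in the other libraries, and values without both replicate 2 libraries are given beside the results for that reason.

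No member of the autophagy machinery passed a threshold. In bulk RNA, fewer cells expressing a gene and less RNA per cell cannot be told apart. At an adjusted p under 0.05 in edgeR, 0 of 33 members were called, against 0.0% of all genes tested, and 0 of 33 had an unadjusted p under 0.05, against 2.02%. DESeq2 and limma-voom also called 0 of 33, against 0.111% and 0.0237% of all genes, and gave 0 of 33 at an unadjusted p under 0.05, against 2.92% and 4.43%. At the threshold of the study's methods, a Log2FC beyond 0.5 with an unadjusted p under 0.05, 0 of 33 members were past it, against 2.02% of all genes. Fitted Log2FC ran from -0.98 for Tfeb to 1.03 for Atg12, with a median of -0.11 beside -0.03 over all genes, and 39.4% of members against 47.3% of all genes lay above 0. These medians do not show absence of change, since the 95% intervals were wide, from -0.93 to 0.70 for Becn1 and from -2.40 to 2.56 for Rb1cc1. The plot of CPM by library shows how far the replicate 2 libraries spread from the others.

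**Figure D1:**
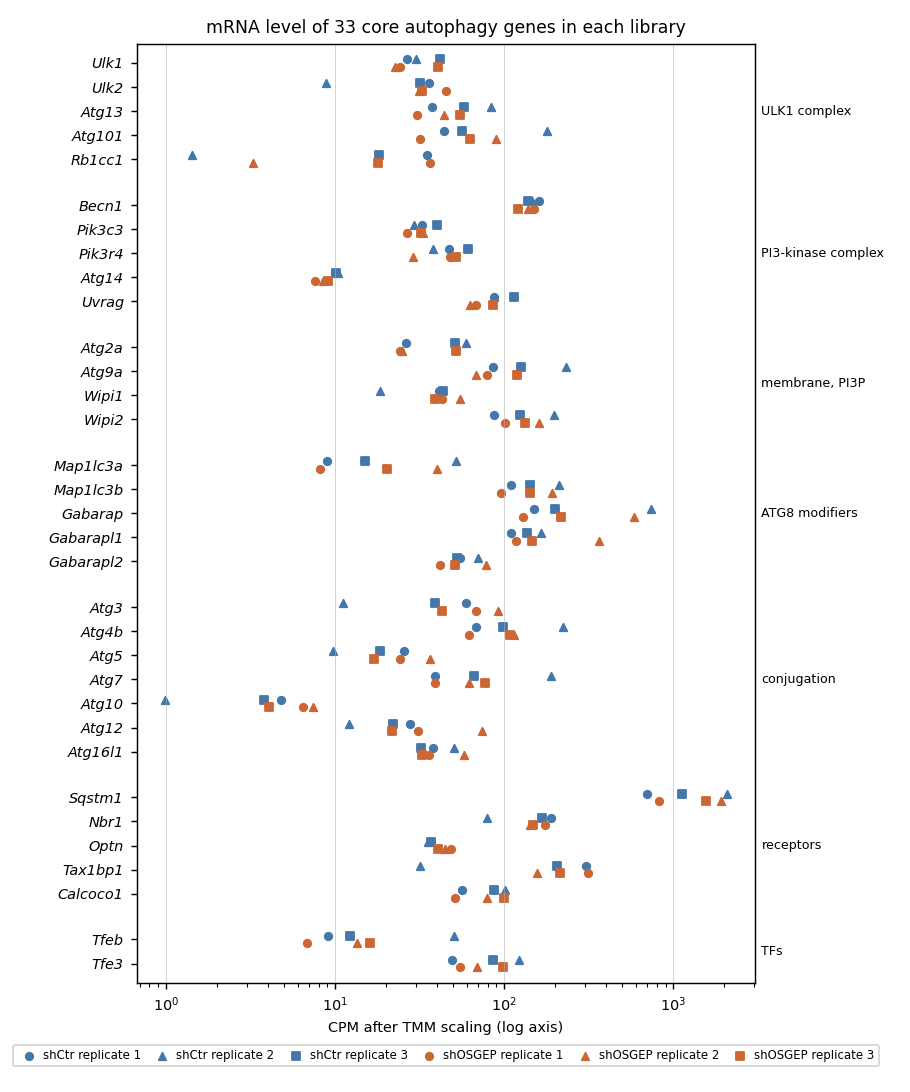
CPM after TMM scaling (log axis) of the 33 genes, grouped by role, with 1 point per library, shCtr in blue and shOSGEP in orange, and the marker shape giving the replicate number. For many genes, such as Tax1bp1 at 31.9 CPM and Gabarap at 733 CPM, the shCtr replicate 2 point (blue triangle) lies outside the other control points.

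Within the ULK1 initiation complex, the median Log2FC was -0.17, with 2 of 5 genes above 0. Ulk1 (chr5:110784488-110810097, minus strand, GRCm38), the kinase that starts autophagosome formation, had 26.7, 29.9 and 42.0 CPM in shCtr and 24.2, 22.7 and 40.5 CPM in shOSGEP. Each depleted library was below the control of the same number, but the groups overlapped, and the Log2FC was -0.17 (SE 0.435, edgeR unadjusted p = 0.698). Atg13 (chr2:91674618-91710576, minus strand), which links the kinase to its scaffold, had the smallest p of the complex. Its values were 37.4, 83.9 and 57.9 CPM in shCtr and 30.6, 44.2 and 55.1 CPM in shOSGEP. The Log2FC of Atg13 was -0.46 (SE 0.461, edgeR unadjusted p = 0.342) and was -0.15 without replicate 2. Rb1cc1, which encodes the scaffold FIP200, had 35.1, 1.43 and 18.1 CPM in shCtr and 36.4, 3.29 and 18 CPM in shOSGEP. The replicate 2 libraries were far below the others in both groups. Its partners Ulk2 and Atg101 had Log2FC of 0.51 and -0.61, neither passed the test, and without replicate 2 the values were 0.19 and -0.08.

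All 5 genes of the class III PI3-kinase complex had a negative Log2FC, from -0.41 to -0.12 with a median of -0.19, and 0 of 5 passed the test. Under 18 alternative settings the median of this group stayed between -0.34 and -0.10, and at most 1 of its 5 genes was above 0. Uvrag (chr7:98885021-99141141, minus strand), a subunit that directs the lipid kinase to endosomes and maturing autophagosomes, had 86.6, 87.4 and 115 CPM in shCtr. In shOSGEP Uvrag had 68.1, 63.1 and 86.4 CPM, so every depleted library was below every control library. The Log2FC was -0.41 (SE 0.377, 95% interval -1.27 to 0.45, edgeR unadjusted p = 0.308), and the exact permutation p was 0.1, the smallest that 3 libraries against 3 allow. With the replicate number as a block together with GC and length offsets, the Log2FC of Uvrag was -0.44 with an unadjusted p of 0.0349 and an adjusted p of 0.531 in edgeR.

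Atg14 (chr14:47540893-47570649, minus strand), the subunit that brings the kinase to sites of autophagosome formation, had 9.98, 10.4 and 10.1 CPM in shCtr and 7.58, 8.52 and 9.08 CPM in shOSGEP. Its groups did not overlap, and the Log2FC was -0.28 (SE 0.416, edgeR unadjusted p = 0.525). Becn1 (chr11:101285952-101302286, minus strand), which encodes Beclin 1, had 161, 146 and 138 CPM in shCtr and 151, 139 and 121 CPM in shOSGEP. Each depleted library of Becn1 was below its same-numbered control, with log2 ratios between -0.19 and -0.08, and the groups overlapped. The Log2FC of Becn1 was -0.12 (SE 0.357, edgeR unadjusted p = 0.755). Pik3c3, the catalytic subunit, and Pik3r4, its regulatory subunit, had Log2FC of -0.15 and -0.19, and of -0.29 and -0.13 without replicate 2. Over all roles, 3 of 33 members were without overlap between groups: Uvrag and Atg14 lower and Optn higher. Of all genes tested, 6.36% were without overlap, 3.49% higher and 2.87% lower.

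**Figure D2:**
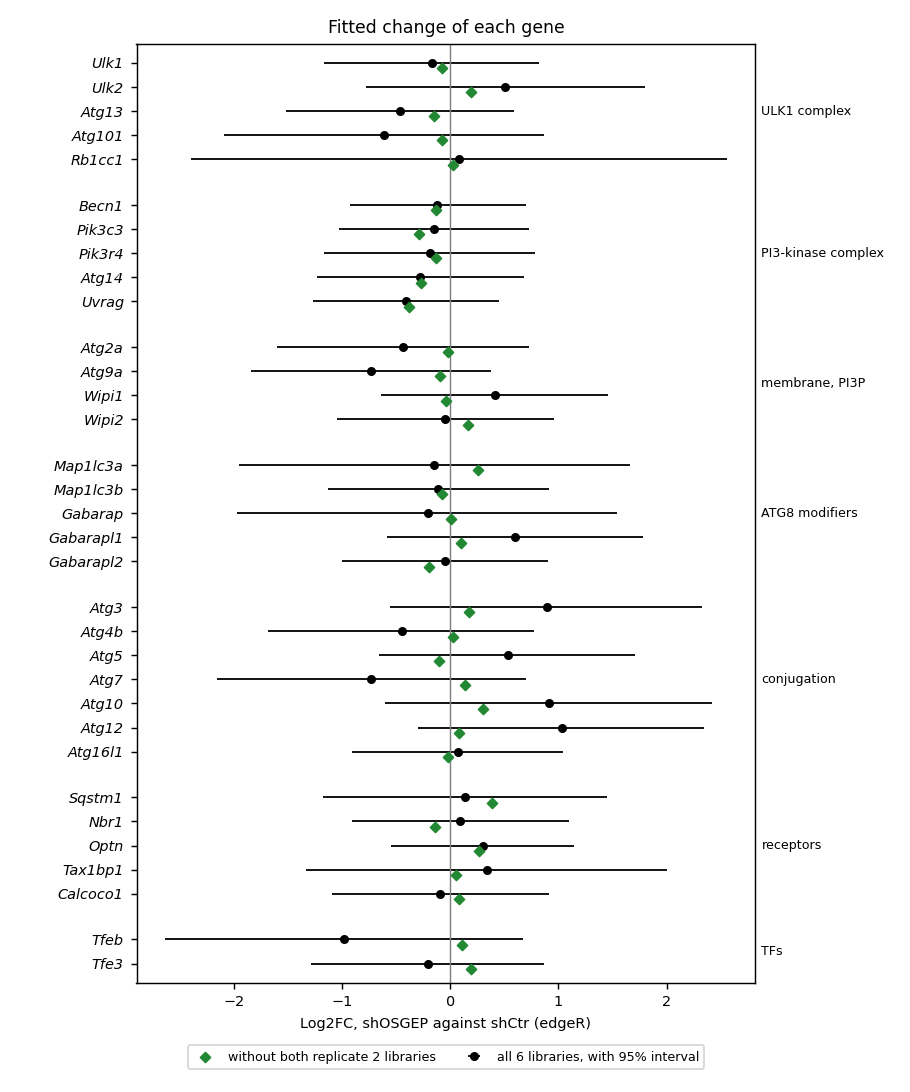
Fitted Log2FC of shOSGEP against shCtr for each gene (edgeR), grouped by role, with black points and 95% intervals from all 6 libraries and green diamonds from the fit without both replicate 2 libraries. Every interval crosses 0, and without replicate 2 the values lie between -0.38 and 0.39.

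Among the genes that supply and read the phagophore membrane, 1 of 4 had a Log2FC above 0 and the median was -0.24. Under upper-quartile scaling Wipi2 also lay above 0. Atg9a (chr1:75180860-75192196, minus strand), a lipid scramblase carried on vesicles that seed the membrane, had 86.3, 231 and 125 CPM in shCtr and 79.3, 68.2 and 119 CPM in shOSGEP. The difference lay in replicate 2, since the log2 ratios of same-numbered libraries were -0.12, -1.75 and -0.07. The Log2FC of Atg9a was -0.73 (SE 0.485, edgeR unadjusted p = 0.170), and without replicate 2 it was -0.09. Of the 31-base words of its transcript, 44.2% also occur in another gene. Gm29253, an overlapping gene on the same strand with 44 counts over all libraries, shares the most, so the split of reads between Atg9a and Gm29253 is uncertain. Atg2a, a lipid transfer protein, and the PI3P-binding proteins Wipi1 and Wipi2 had Log2FC of -0.44, 0.41 and -0.05. Without replicate 2 these were -0.02, -0.04 and 0.16, so Wipi1, the gene above 0 in the full set, lay below it.

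Of the 5 ATG8 modifiers, which coat the autophagosome and tether cargo, 1 had a Log2FC above 0 (Gabarapl1) and the median was -0.11, while under upper-quartile scaling Map1lc3a, Map1lc3b and Gabarapl2 lay above 0 as well. Map1lc3b (chr8:121590361-121598760, plus strand), which encodes LC3B, had 110, 210 and 142 CPM in shCtr and 95.1, 191 and 142 CPM in shOSGEP. The groups of Map1lc3b overlapped over nearly their whole range, and the Log2FC was -0.11 (SE 0.445, 95% interval -1.13 to 0.91, edgeR unadjusted p = 0.816). Gabarapl1 (chr6:129533160-129542346, plus strand) had 109, 166 and 136 CPM in shCtr and 117, 361 and 145 CPM in shOSGEP. Each depleted library of Gabarapl1 was above its same-numbered control, by 0.11, 1.12 and 0.09 on the log2 scale. Its Log2FC was 0.60 (SE 0.516, edgeR unadjusted p = 0.279), which became 0.10 without replicate 2 and -0.05 without the depleted library of replicate 2 alone. Map1lc3a, Gabarap and Gabarapl2 had Log2FC of -0.15, -0.21 and -0.05, which were 0.26, 0.01 and -0.20 without replicate 2.

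The conjugation enzymes were the role with the highest median in the main fit, 0.53, with 5 of 7 genes above 0. Under the 18 alternatives this median ran from 0.08, the value without both replicate 2 libraries, to 0.92. With GC and length offsets the median was 0.22. The conjugation enzymes did not have the highest median in all alternatives. Without shCtr replicate 2 the median of the ATG8 modifiers was higher, at 0.76. Atg12 (chr18:46730144-46741580, minus strand), the ubiquitin-like protein joined to ATG5, had 27.7, 12.1 and 21.9 CPM in shCtr and 30.8, 73.5 and 21.7 CPM in shOSGEP. The control library of replicate 2 was the lowest and the depleted one of replicate 2 the highest, while the others overlapped. The Log2FC of Atg12 was 1.03 (SE 0.579, 95% interval -0.30 to 2.35, edgeR unadjusted p = 0.113), and without replicate 2 it was 0.08. Atg3, the E2-like enzyme for ATG8 lipidation, followed the same order, with 59.4, 11.1 and 38.9 CPM in shCtr and 67.7, 92.3 and 42.6 CPM in shOSGEP. Its Log2FC of 0.89 became 0.17 without replicate 2. Atg10, the E2-like enzyme for ATG12, and Atg5 had Log2FC of 0.91 and 0.53, which were 0.30 and -0.10 without replicate 2. Atg7, the E1-like enzyme that activates both ubiquitin-like systems, and Atg4b, the protease that trims ATG8 proteins, had Log2FC of -0.73 and -0.45, which were 0.14 and 0.03 without replicate 2. Atg16l1, which places the ATG12-ATG5 conjugate on the membrane, had a Log2FC of 0.07, and of -0.02 without replicate 2.

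Among the cargo receptors 4 of 5 genes had a Log2FC above 0, with a median of 0.14, and under upper-quartile scaling the remaining one, Calcoco1, did too. Sqstm1 (chr11:50199366-50210827, minus strand), which encodes p62, had 698, 2080 and 1130 CPM in shCtr and 817, 1910 and 1560 CPM in shOSGEP. The libraries of replicate 2 were the highest of both groups, and the spread within each group was wider than the difference between them. The Log2FC of Sqstm1 was 0.14 (SE 0.574, 95% interval -1.18 to 1.45, edgeR unadjusted p = 0.819), and without replicate 2 it was 0.39 (SE 0.460). Optn (chr2:5020642-5064051, minus strand), which encodes optineurin, a receptor for damaged mitochondria and bacteria, had 37.0, 35.2 and 36.8 CPM in shCtr and 48.7, 44.5 and 40.5 CPM in shOSGEP. Every depleted library of Optn was above every control library, including without replicate 2. The Log2FC of Optn was 0.30 (SE 0.367, 95% interval -0.55 to 1.14, edgeR unadjusted p = 0.444), and the exact permutation p was 0.1. Nbr1, Tax1bp1 and Calcoco1 had Log2FC of 0.09, 0.34 and -0.09, which were -0.14, 0.05 and 0.08 without replicate 2.

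Tfeb and Tfe3 encode transcription factors that switch on lysosomal and autophagy genes. Tfeb (chr17:47737030-47792419, plus strand) had 9.05, 50.6 and 12.3 CPM in shCtr and 6.84, 13.4 and 16.1 CPM in shOSGEP. The control library of replicate 2 was the highest by far, and the other 5 libraries lay between 6.84 and 16.1 CPM with no separation of the groups. The Log2FC of Tfeb was -0.98 (SE 0.722, edgeR unadjusted p = 0.210), and it was 0.19 without that control library and 0.11 without both replicate 2 libraries. Tfe3 had a Log2FC of -0.21, and of 0.19 without replicate 2.

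The size of the differences between same-numbered libraries separated replicate 2 from the other pairs. In replicate 1 the log2 ratio of shOSGEP over shCtr ran from -0.47 for Atg101 to 0.41 for Atg10, and in replicate 3 from -0.41 for Uvrag to 0.47 for Sqstm1. All 33 members were within 0.5 in both of these, against 86.1% and 90.5% of all genes tested. The genes tested were not matched to the members in expression level, so these shares do not show that members were steadier. In replicate 2 the ratios ran from -1.87 for Tfeb to 3.0 for Atg3, and 15 of 33 members were within 0.5, against 27.4% of all genes. The ratio was positive in all 3 pairs for 6 members (Ulk2, Gabarapl1, Atg3, Atg10, Optn and Tax1bp1) and negative in all 3 for 6 (Ulk1, Atg13, Becn1, Atg14, Uvrag and Atg9a). Together these were 36.4% of members, beside 34.8% of all genes (17.6% positive and 17.2% negative).

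**Figure D3:**
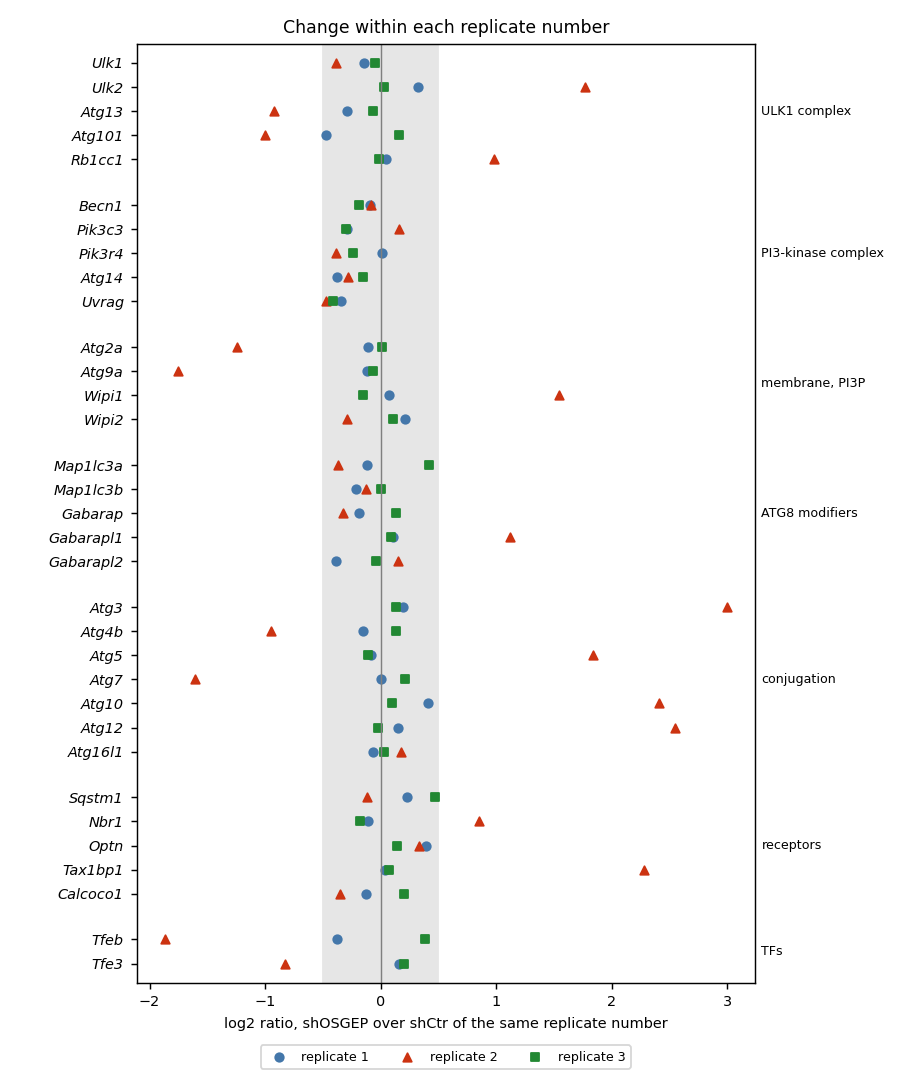
log2 ratio of shOSGEP over shCtr within each replicate number, 1 point per gene and replicate, with grey shading from -0.5 to 0.5. All circles (replicate 1) and squares (replicate 3) lie in the shaded band, while the replicate 2 triangles reach -1.87 for Tfeb and 3.0 for Atg3.

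The base composition of the transcripts moved with these values. For each member, shCtr replicate 2 was set against the mean of the other control libraries on the log2 CPM scale, and this deviation ran from -3.74 for Rb1cc1 to 2.21 for Tfeb. Across the 33 members, which share these libraries, its correlation with transcript GC content was 0.79 (Pearson) and 0.77 (Spearman). The Log2FC correlated with GC content at -0.64 by both measures. Over members and other autophagy genes together (84 genes), the deviation correlated with GC content at 0.79 by both measures. For the Log2FC of these 84 genes the values were -0.57 (Pearson) and -0.59 (Spearman), so the relation was not particular to the members. In the main fit the 6 members under 45% GC (Rb1cc1, Atg3, Atg5, Atg10, Atg12 and Tax1bp1) all had a Log2FC above 0. The 8 members over 55% GC all had one below 0, and of the 19 members between, 7 were above 0. Under upper-quartile scaling Map1lc3a and Calcoco1 lay above 0. Without shCtr replicate 2, Map1lc3a (0.93), Atg101 (0.29), Tfeb (0.19), Tfe3 (0.14) and Calcoco1 (0.10) lay above 0, and Ulk1, Atg2a and Atg9a below. Of the members under 45% GC, Rb1cc1 (-0.47) and Tax1bp1 (-0.16) then lay below 0, and Atg3, Atg5, Atg10 and Atg12 above. With offsets for GC content and length in edgeR the median Log2FC of the members was -0.01 and the range was -0.70, for Becn1, to 0.79. The part of base composition in the conjugation enzymes' higher median, where the median GC content was 44.8%, was not tested.

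**Figure D4:**
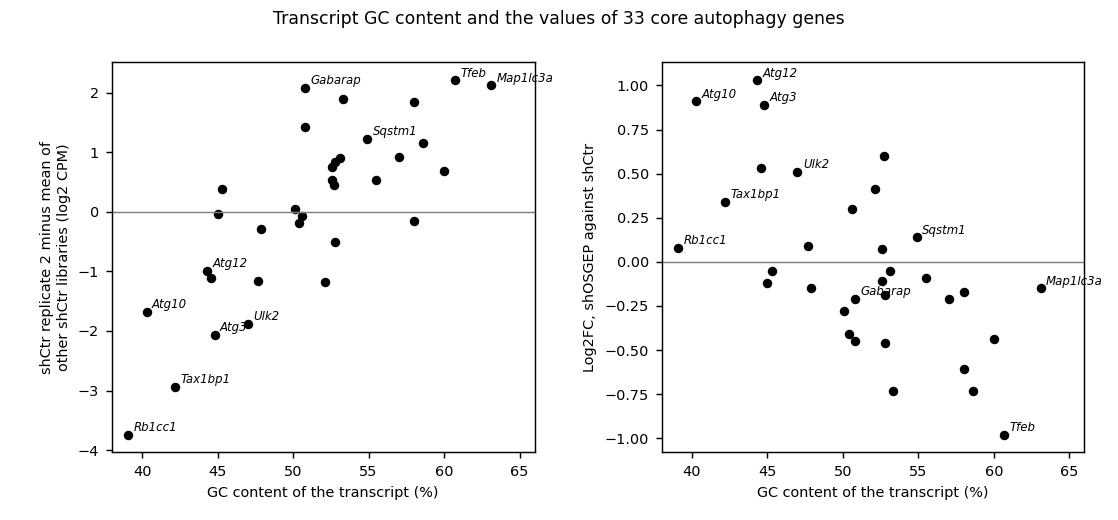
Transcript GC content (%) of the 33 genes against the log2 CPM deviation of shCtr replicate 2 from the mean of the other control libraries (left) and against the Log2FC of shOSGEP over shCtr (right), 1 point per gene. The left values run from -3.74 for Rb1cc1 to 2.21 for Tfeb, and the right values are above 0 for all 6 genes under 45% GC.

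Levels between genes were compared on the TPM scale, which divides counts by the length of the annotated transcript. Sqstm1 had the highest TPM in each of the 6 libraries, with a mean of 1220 and a range from 743 to 1650. Gabarap followed at a mean of 417 TPM, Gabarapl1 at 178, Tax1bp1 at 132, Wipi2 at 127 and Map1lc3b at 108 TPM. The ranges of Gabarapl1, Tax1bp1, Wipi2 and Map1lc3b over the libraries overlapped. Within libraries, Gabarapl1 and Wipi2 were each above Map1lc3b in all 6, while the other orders among these genes changed from library to library and are not resolved. The lowest mean levels were 5.97 TPM for Atg10, 5.43 for Rb1cc1 and 4.82 for Atg14, and their ranges overlapped too. The narrowest ranges on the TPM scale were those of Wipi2 and Map1lc3b, whose highest library was 1.49 times the lowest. The widest was that of Rb1cc1, at 53.6 times. TPM takes no TMM factor, and the order of the ranges depends on the scale. In TMM-scaled CPM, Wipi2 ran from 87.6 to 197 and Map1lc3b from 95.1 to 210, wider ranges than that of Becn1, at 121 to 161. Becn1 had a mean of 63.8 TPM, which may be understated because the annotated transcript used is 4365 bases long. Exons of Becn1 also overlap those of Cntd1 on the opposite strand over 3104 bases, and Cntd1 had 68 counts over all libraries.

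The make-up of the ATG8 family and of the receptors was compared as shares of their summed TPM. Gabarap made up 52.1% ± 13.3 (SD, n = 3) of the ATG8 mRNAs in shCtr and 47.8% ± 6.61 in shOSGEP. Gabarapl1 made up 19.4% ± 6.96 and 25.4% ± 2.53 (exact permutation p = 0.3, two-sided). Map1lc3b held 14.9% ± 3.98 in shCtr and 14.0% ± 3.82 in shOSGEP. Among receptors, Sqstm1 held 80.1% ± 12.9 in shCtr and 81.0% ± 9.35 in shOSGEP, a difference smaller than the spread within either group. The Sqstm1 share was higher in replicate 2 of both groups, at 93.1% and 88.5%, than in any other library.

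**Figure D5:**
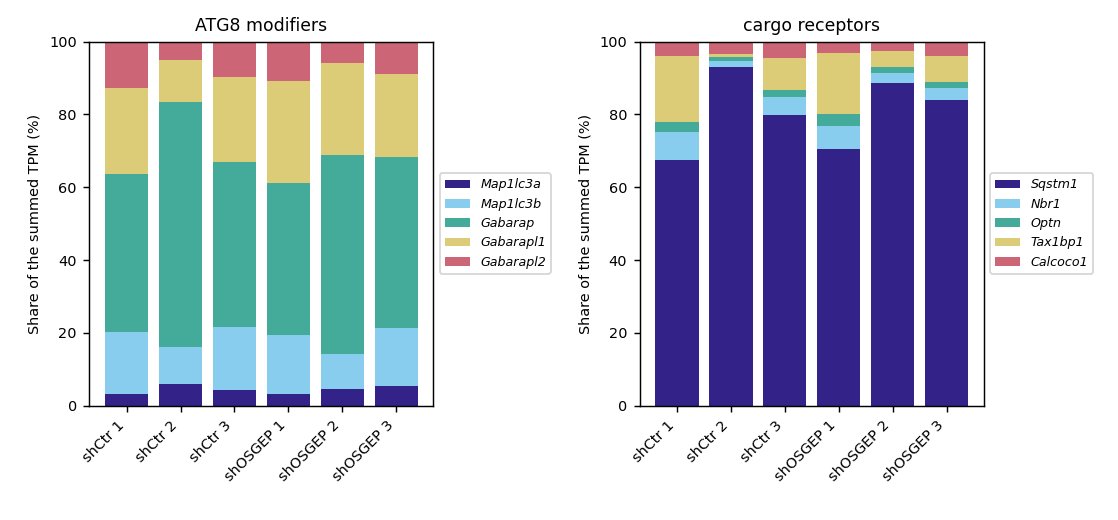
Share of the summed TPM (%) held by each of the 5 ATG8 modifiers (left) and 5 cargo receptors (right) in each library. Gabarap takes 67.4% of the ATG8 mRNAs in shCtr replicate 2 and between 41.7% and 54.8% in the other libraries, and Sqstm1 takes 67.4% to 93.1% of the receptor mRNAs.

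Further genes of the pathway were counted in the same way. Of 54 other autophagy genes, 51 were tested, 25 had a Log2FC above 0 and 26 below, the median was -0.01, and 0 passed an adjusted p under 0.05 or the study's threshold in edgeR, against 0.0% and 2.02% of all genes, with 0 also at an unadjusted p under 0.05, against 2.02%. Phb2, a mitochondrial inner membrane mitophagy receptor, had 315, 1300 and 413 CPM in shCtr and 245, 255 and 399 CPM in shOSGEP. The Log2FC of Phb2 was -1.18 (SE 0.613, edgeR unadjusted p = 0.0902), with the control library of replicate 2 far above the rest, and without replicate 2 it was -0.17. Vps11, a subunit of the tethering complexes that act in fusion with the lysosome, had 59.9, 245 and 96.1 CPM in shCtr and 55.4, 69.4 and 92.1 CPM in shOSGEP. The Log2FC of Vps11 was -0.89 (SE 0.570, edgeR unadjusted p = 0.157), and without replicate 2 it was -0.08.

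Lists of autophagy genes known as targets of stress factors were also counted. Of 12 genes listed as targets of ATF4 or CHOP, factors of the response to blocked translation initiation and endoplasmic reticulum stress, 7 had a Log2FC above 0, with a median of 0.08, and 0 passed the test in edgeR. Of 7 genes listed as TFEB targets, 2 lay above 0, with a median of -0.11, and 0 passed. Neither list had a gene at an unadjusted p under 0.05, against 2.02% of all genes, a share at which lists this short say nothing.

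Promoter sequences were read to show which members carry the E-box CACGTG, which TFEB and its relatives bind. RefSeq windows of GRCm38.p6, from 250 bases before to 50 after the start, matched 27 of 33 members. The E-box, a palindrome and so the same on both strands, was found in 4 of the 27 (14.8%, against 8.09% of all genes with a window). The longer TFEB-type word TCACGTGA, which contains it, was found in 1 (3.70%, against 1.12%). The ATF4-type word TGATGNAA, on either strand, was in 0 of 27 (4.51% of all genes), which says only that these letters are not in these windows. The stretches around each match are printed 5′ to 3′ on the gene's strand, with the motif in capitals, at chr16:45158713-45158785 (Atg3, plus), chr14:47568408-47568457 (Atg14, minus), chr10:44268303-44268352 (Atg5, plus) and chr6:114670942-114670991 (Atg7, plus).
Atg3: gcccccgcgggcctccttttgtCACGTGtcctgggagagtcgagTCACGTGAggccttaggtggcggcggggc
Atg14: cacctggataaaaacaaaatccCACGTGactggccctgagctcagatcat
Atg5: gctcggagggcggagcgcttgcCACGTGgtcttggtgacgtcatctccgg
Atg7: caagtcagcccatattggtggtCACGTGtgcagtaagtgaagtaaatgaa
Of these 4 genes, Atg3 and Atg5 had a Log2FC above 0 (0.89 and 0.53) and Atg14 and Atg7 below 0 (-0.28 and -0.73), so genes sharing the motif did not lie on the same side. A match is a description of the sequence and not a binding site measured here. The windows of Atg7 and Atg14 lie inside the annotated genes, whose 5′ ends are at chr6:114643097 (plus) and chr14:47570649 (minus), so these matches are not at the outermost start.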

How the data were processed

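PolyA RNA of 6 libraries, 3 shCtr and 3 shOSGEP, was sequenced by the authors. Per the submitters' processing notes, reads were aligned to GRCm38 with STAR 2.6.1d and quantified with Salmon 1.4.0, and edgeR 3.14 and DESeq2 1.30 are also named. The deposited values are estimated counts per gene, written as whole numbers and not normalized; they were expected to be raw counts and were used as such. Salmon divides reads between similar transcripts, and the library kit does not mark strand, so near-identical or opposite-strand overlapping genes are uncertain. Transcript length, GC content and positions came from GENCODE M21 (99.9% of tested genes).

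Genes were filtered with filterByExpr (minimum count 10, minimum total 15), scaled by TMM and tested with edgeR 4.0.16 in R 4.3.3 (quasi-likelihood, two-sided, no block, Benjamini-Hochberg over 12669 genes). Log2FC intervals are at 95%, and log2 ratios and permutation tests of CPM used a pseudocount of 0.5. DESeq2 1.42.0, limma 3.58.1 (voom with sample weights), other scalings and filters, GC and length offsets, a replicate block and left-out libraries were alternatives. The code was tested on simulated data. Same-numbered libraries deviated together from their group means (correlations 0.811, 0.557 and 0.196), each over 0.1, so the numbers were taken to pair them, although shCtr replicate 3 correlated more with shOSGEP replicate 1 (0.491). Full values are given for Sqstm1, Map1lc3b, Ulk1, Becn1, Tfeb, the smallest p in each role, any member past a threshold or without overlap, and Osgep; of other autophagy genes, those past the study's threshold or else the 3 with the smallest p. The values of 1 of these are not reported here. Values of Rb1cc1 and Atg3 were added after they were seen. Members and lists were chosen with earlier results of these data known. TPM was computed from the counts and annotated lengths.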

Additional observations from a re-analysis of the deposited data

How the results depend on the processing

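The counts of 0 members at an adjusted p under 0.05 and of 0 past the study's threshold held under all 18 alternatives. The median Log2FC of the members, -0.11, was 0.03 under upper-quartile scaling, -0.01 with GC and length offsets, and 0.00 with the replicate block and these offsets. It ran from -0.21 (without shCtr replicate 1) to 0.14 (without shCtr replicate 2) when libraries were left out. The replicate block alone gave -0.10. The block changed no call, and with block and offsets 1 member, Uvrag, had an unadjusted p under 0.05 (0.0349). Members without overlap between groups, 3 in the full set, numbered 3 to 9 with 1 library left out. Without shCtr replicate 1 they were 7 (21.2%, against 20.9% of all genes), without replicate 2 they were 3 (9.09%, against 15.7%) and without replicate 3 they were 3 (9.09%, against 9.72%). Without shOSGEP replicate 1 they were 3 (9.09%, against 9.06%), without replicate 2 they were 4 (12.1%, against 10.3%) and without replicate 3 they were 9 (27.3%, against 20.0%). Of the other autophagy genes, 1 was past the study's threshold with at least 10 counts in every library, 1 with offsets (Atg4a), 2 with block and offsets (Atg4a and Trp53inp2), and 0 to 1 with libraries left out (Phb2 without shCtr replicate 1). Atg4a and Trp53inp2 are named after their values were seen. The median Log2FC of the other autophagy genes was -0.13 with offsets. Osgep was -3.32 with DESeq2, at an adjusted p of 0.0386.

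Of 594 Log2FC values of single members under the alternatives, 525 kept their direction and 69 did not, and 12 of 33 members kept it throughout. None of the reversed values was called, and the cause was not tested. With voom weights Rb1cc1 was -0.01, Wipi1 -0.02, Wipi2 0.06, Map1lc3a 0.17, Gabarap 0.05 and Nbr1 -0.11. Under upper-quartile scaling Wipi2 was 0.09, Map1lc3a 0.03, Map1lc3b 0.03, Gabarapl2 0.08 and Calcoco1 0.03. With at least 10 counts in every library Wipi2 was 0.01. With offsets Rb1cc1 was -0.16, Wipi2 0.10, Map1lc3a 0.33, Calcoco1 0.08 and Tfe3 0.05. With the replicate block Wipi2 was 0.01, and with block and offsets Ulk1 was 0.01, Rb1cc1 -0.18, Wipi2 0.11, Map1lc3a 0.27, Calcoco1 0.07 and Tfe3 0.05.

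With libraries left out, Log2FC ran from -0.49 to 0.05 for Ulk1, -0.95 to 0.29 for Atg101, -0.77 to 0.98 for Rb1cc1, -0.36 to 0.04 for Pik3r4, -0.04 to 0.71 for Wipi1, -0.28 to 0.32 for Wipi2, -0.79 to 0.93 for Map1lc3a, -0.35 to 0.18 for Map1lc3b and -1.01 to 0.84 for Gabarap. It ran from -0.05 to 0.88 for Gabarapl1, -0.33 to 0.13 for Gabarapl2, -0.76 to 0.18 for Atg4b, -0.10 to 0.92 for Atg5, -1.19 to 0.17 for Atg7, -0.21 to 0.27 for Atg16l1 and -0.16 to 0.65 for Sqstm1. It ran from -0.20 to 0.33 for Nbr1, -0.16 to 0.95 for Tax1bp1, -0.33 to 0.13 for Calcoco1, -1.56 to 0.19 for Tfeb and -0.49 to 0.19 for Tfe3. All members passed the count filter. The biological coefficient of variation between libraries was 0.566, and 0.278 with block and offsets.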

Other observations

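Codons read by tRNAs that carry t6A begin with A. Their share of the coding sequence was a median of 27.0% over the 33 members and 26.8% over the 11519 tested genes with a coding sequence.

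Some members share transcript sequence with other annotated genes. Of the 31-base words of the transcript, 21.1% of those of Gabarapl2, 17.6% of those of Rb1cc1 and 16.1% of those of Map1lc3b also occur in another gene, so their estimated counts carry an uncertainty that the replicate spread does not cover. Exons of Sqstm1 overlap those of Mrnip on the opposite strand over 580 bases, and the library kit does not mark strand, so reads from the overlap cannot be told apart. The same holds for Uvrag and Gm45187 (1589 bases) and for Gabarapl1 and 1700101I11Rik (570 bases). Over all libraries Mrnip had 1719 counts, Gm45187 had 3 and 1700101I11Rik had 46.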
